A study of Mus musculus with 6 samples.

Results

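The Sox genes examined here were the 3 SoxC factors Sox4, Sox11 and Sox12, the SoxB1 factor Sox2, the SoxD factors Sox5 and Sox6, and the SoxE factors Sox8 and Sox9. They were picked by gene symbol from the 24060 genes of a table of RNA-seq counts, and all 8 were in it and among the 16449 genes with enough counts to be tested. The cells were retinal ganglion cells (RGCs) of C57BL/6 mice, taken from papain-dissociated retinas by immunopanning, which removes macrophages on a first antibody and then holds RGCs on a dish coated with antibody to CD90 (Thy1). RNA was sequenced from 3 samples of embryonic day 18 (E18) RGCs, numbered 1, 3 and 4, and from 3 samples of postnatal day 5 (P5) RGCs, numbered 6, 8 and 9, none of them treated or genetically altered. The comparison asks how RGC gene expression differs between an age of rapid axon growth and an age at which this ability has been lost. The labels do not say whether a sample pools several litters, so the p-values measure the spread between these samples, which may be technical.

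Sox proteins are transcription factors that bind DNA through an HMG box, a domain first known from Sry, and the family is divided into groups by the similarity of that domain. SoxC factors activate neuronal genes in newly formed neurons, and in the developing retina Sox4 and Sox11 are needed for RGCs to form. Sox2 maintains neural progenitors and in the retina is also made by Müller glia and by the cholinergic (starburst) amacrine cells, Sox8 and Sox9 belong to progenitors and glia, and Sox5 and Sox6, which lack an activation domain of their own, act in the differentiation of several neuronal and glial types.

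The samples held 81213639 to 114512853 reads assigned to genes. A level below is given in CPM, the reads of a gene scaled to a library of fixed size after TMM normalization. A log2 fold change compares E18 with P5 and is positive where E18 was higher, ± marks its standard error (SE), and the adjusted p is that of edgeR's quasi-likelihood test over all genes tested, with a threshold of 0.05. The 15 RGC markers summed to 8704 to 9959 CPM at E18 and 9174 to 10324 CPM at P5. By edgeR's test 3 of them were higher and 5 lower at E18, where 20.8% of all genes tested were called higher and 22.5% lower. Thy1, the antigen of the panning step, was among the lower ones, with 212, 217 and 312 CPM at E18 and 499.5, 469 and 690.1 CPM at P5 (log2 fold change -1.16 ± 0.189 SE, edgeR adjusted p = 0.00197). The E18 samples differed in the summed genes of some other cell types and were close in others. Bipolar genes summed to 44.8, 44.2 and 49.5 CPM in E18 replicates 1, 3 and 4, and microglia genes to 21.3, 19.0 and 21.5 CPM. Photoreceptor genes summed to 60.5, 54.3 and 19.9 CPM. Endothelial and pericyte genes, mostly Kdr, summed to 73.7, 65.3 and 17.4 CPM. The amacrine sum was mostly Megf10 and Tfap2b in E18 replicates 1 and 3, while Slc5a7 and Slc6a9 differed little between the E18 samples. The 13 amacrine genes summed to 283, 604 and 37.5 CPM in E18 replicates 1, 3 and 4, against 32.3 to 42.4 CPM at P5, and the 14 dividing-cell genes summed to 414, 193 and 138 CPM, against 107 to 128 CPM at P5. E18 replicate 4 therefore lay within the P5 range for the amacrine list and closest to it for the dividing-cell list, and the values of the 8 Sox genes are given below also with E18 replicate 4 alone set against the P5 samples, a fit chosen after seeing the data in which the lone sample is assumed to vary like the P5 samples. In these bulk samples, fewer cells of a type and less RNA per cell cannot be told apart.

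The DNA before the start sites of the SoxC genes is shown first, and its part in their levels was not tested. Each line gives the 250 bases upstream of the RefSeq transcription start, 5′ to 3′ on the strand of the gene, from RefSeq on GRCm38.p6, the assembly of mm10. The stretches are chr13:28953700-28953949, chr12:27342719-27342968 and chr2:152398047-152398296, all on the minus strand. Capitals mark matches on either strand to CCAAT, a common promoter element, and to GGGCGG, the core of the site of Sp1. Both were among 6 short motifs searched on both strands, with the TATA box core TATAAA, the ETS core CCGGAA to which Elk-1 binds, and ACAAAG and also ACAATG, cores that Sox proteins bind.
Sox4: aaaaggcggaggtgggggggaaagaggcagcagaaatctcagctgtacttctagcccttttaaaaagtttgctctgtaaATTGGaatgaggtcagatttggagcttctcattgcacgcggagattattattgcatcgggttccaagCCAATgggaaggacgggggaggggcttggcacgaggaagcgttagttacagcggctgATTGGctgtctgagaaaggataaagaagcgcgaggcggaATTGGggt
Sox11: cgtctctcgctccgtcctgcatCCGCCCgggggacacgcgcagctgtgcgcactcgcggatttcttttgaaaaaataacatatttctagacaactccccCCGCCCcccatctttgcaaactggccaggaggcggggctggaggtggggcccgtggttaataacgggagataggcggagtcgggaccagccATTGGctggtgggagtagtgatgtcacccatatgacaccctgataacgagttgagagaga
Sox12: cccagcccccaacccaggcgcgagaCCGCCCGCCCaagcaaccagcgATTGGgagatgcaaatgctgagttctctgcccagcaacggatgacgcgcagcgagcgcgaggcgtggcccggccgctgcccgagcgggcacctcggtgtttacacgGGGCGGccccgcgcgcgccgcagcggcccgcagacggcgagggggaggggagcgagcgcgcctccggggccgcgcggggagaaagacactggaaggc

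The GENCODE genes whose coordinates are given below start elsewhere: the last bases of the Sox4 and Sox12 stretches lie within the GENCODE gene, among them the last CCAAT match of Sox4, and the Sox11 stretch begins further upstream. CCAAT was present before all 3 SoxC genes, in 4 places at Sox4 and in 1 place each at Sox11 and Sox12, and 33.8% of the 32851 promoters of the same length hold it. GGGCGG was absent from the Sox4 stretch, stood in 2 places at Sox11 and in 3 at Sox12, of which 2 overlap, and is held by 32.7% of all promoters. None of the 3 stretches held TATAAA (12.4% of all promoters), CCGGAA (12.03%), ACAAAG (16.5%) or ACAATG (10.7%), which says only that these letters are not in the windows shown. The stretches differed in base composition, with 50.8% G and C at Sox4, 58.0% at Sox11 and 74.4% at Sox12, against a median of 52.4% over all promoters. The motifs were not particular to SoxC genes. Of the Sox genes not shown, Sox2 and some starts of Sox6 also held CCAAT, and Sox2, Sox8 and a start of Sox6 held GGGCGG. The Sox2 stretch held CCGGAA and ACAAAG too.

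The 3 SoxC genes were all higher at E18, by 2.65-fold for Sox4, 4.17-fold for Sox11 and 2.62-fold for Sox12, with every E18 sample above every P5 sample. Of all genes tested, 20.8% were called higher at E18, 22.5% lower and 43.4% changed in either direction, and 27.6% had every E18 sample above every P5 sample, so the direction alone is common in these data. The size is less so, since 1.65% of the genes tested had a larger log2 fold change than Sox11, 3.86% a larger one than Sox4 and 3.97% a larger one than Sox12.

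Sox11, which promotes axon growth in RGCs and is found as 1 exon (ENSMUSG00000063632.6, chromosome 12 of mm10, from 27334264 to 27342574 on the minus strand), had 833, 943 and 832 CPM in E18 replicates 1, 3 and 4 and 224, 283 and 119 CPM in P5 replicates 6, 8 and 9. The E18 samples lay close to each other, with the highest 1.13 times the lowest, while the P5 samples differed by up to 2.39 times. The log2 fold change was 2.06 ± 0.268 (SE), with an adjusted p of 0.000806 from edgeR's quasi-likelihood test, on means of 869 ± 63.6 and 209 ± 83.3 CPM (SD, n = 3 each).

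Sox4, which acts alongside Sox11 in RGC formation and is also encoded in 1 exon (ENSMUSG00000076431.4, chromosome 13, 28948919 to 28953713, minus strand), had 549, 629 and 579.6 CPM at E18 and 216, 307 and 139.8 CPM at P5, in the same sample order. Again the E18 values were tight, within 1.15 times of each other, and the P5 values spread over 2.19 times. For Sox4 the log2 fold change was 1.41 ± 0.238 (SE), with an adjusted p of 0.00236 from the edgeR test, on means of 586 ± 40.3 and 221 ± 83.5 CPM (SD, n = 3 each). A noncoding gene on the other strand, Gm26735, overlaps Sox4 in the annotation and is not a row of the table, and no source says whether reads were counted by strand.

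Sox12, the SoxC member with the weakest effect when lost in mice, lies in 1 exon as well (ENSMUSG00000051817.8, chromosome 2, 152393611 to 152398063, minus strand). It had 51.2, 57.2 and 51.0 CPM at E18 and 18.09, 27.0 and 15.8 CPM at P5. The ages did not overlap, and P5 replicate 8 was again the highest P5 sample. The edgeR fit gave Sox12 a log2 fold change of 1.39 ± 0.187 (SE) and an adjusted p of 0.000913, on means of 53.1 ± 3.50 and 20.3 ± 5.92 CPM (SD, n = 3 each).

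**Figure D1:**
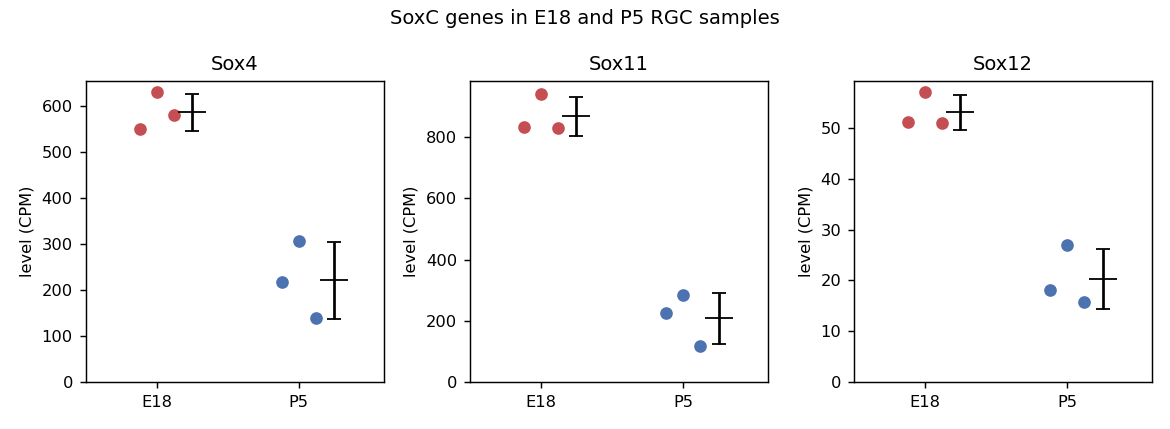
Levels of Sox4, Sox11 and Sox12 in CPM (y axis, from 0) in the 3 E18 samples (red points, replicates 1, 3 and 4 from left to right) and the 3 P5 samples (blue points, replicates 6, 8 and 9), with the mean and SD as black bars. All E18 points lie above all P5 points for each gene, and in each gene P5 replicate 8 is the highest and P5 replicate 9 the lowest of the P5 samples.

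With E18 replicate 4 alone against the P5 samples, the log2 fold changes were 2.01 for Sox11, 1.40 for Sox4 and 1.34 for Sox12, and all 3 were called (adjusted p = 0.00408, 0.0163 and 0.0138 by edgeR), in a fit that called 9.48% of the genes tested. The P5 samples moved the values more than the E18 samples did. Without P5 replicate 9 the log2 fold change of Sox11 was 1.78, and without P5 replicate 8 it was 2.33. For Sox4 these values were 1.16 and 1.70, and for Sox12 they were 1.23 and 1.63, with every call kept.

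Among the P5 samples, replicate 8 had the highest and replicate 9 the lowest level of each SoxC gene. This order was noticed after the values were seen, and nothing that moves with it was tested.

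Per kilobase of exon, a scale on which levels of different genes can be set side by side, Sox4 was the highest of the 8 Sox genes at both ages, with means of 122 CPM per kilobase (SD 8.40, n = 3) in the E18 samples and of 46.1 (SD 17.4, n = 3) at P5. Sox11 followed with 105 ± 7.65 and 25.1 ± 10.02 (SD, n = 3 each), so that Sox11 exceeds Sox4 in CPM at E18 (its exon of 8311 bases is longer than that of Sox4, 4795 bases) but not per kilobase. These lengths are those of GENCODE, while the reads were assigned to RefSeq genes, and the order was not tried with RefSeq lengths. Per kilobase the P5 samples of Sox4 (29.1 to 63.9) and Sox11 (14.3 to 34.1) overlapped, but within each of the 6 samples Sox4 was above Sox11. Sox12 was far lower, with 11.9 ± 0.787 and 4.56 ± 1.33 CPM per kilobase (SD, n = 3 each). Of the 15662 tested genes with an exon length, Sox4 stood at position 225 and Sox11 at 271 from the top at E18, and at positions 910 and 1909 at P5.

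The rest of the order was set by Sox2, Sox6, Sox5, Sox8 and Sox9. At E18 the mean of Sox2 was 18.8 CPM per kilobase, but its 3 samples ran from 0.462 to 33.7, so that its place above Sox12 and Sox6 (7.45 ± 0.902, SD, n = 3) is within its spread. At E18 Sox8 (0.589 ± 0.799) overlapped in its samples both with Sox5 (0.5995 ± 0.132) and with Sox9 (0.209 ± 0.206), while every Sox9 sample was below every Sox5 sample (SD, n = 3 each). At P5 Sox6 (6.42 ± 1.06) stood above Sox12 with overlapping samples, Sox2 (0.503 ± 0.189) overlapped with Sox5 (0.439 ± 0.0547), and Sox8 (0.0590 ± 0.0271) overlapped with Sox9 (0.0414 ± 0.00431). The exon lengths of Sox5 and Sox6 sum over 25 merged exons of many transcripts, so their level per kilobase is a lower estimate where only some exons are used.

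**Figure D2:**
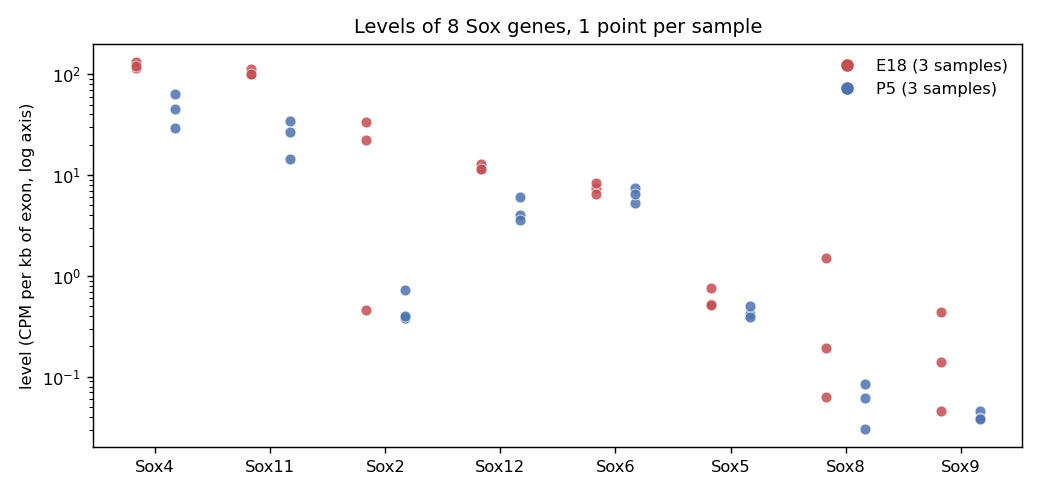
Level of each Sox gene in CPM per kilobase of exon (y axis, log scale) in the 3 E18 samples (red) and the 3 P5 samples (blue), 1 point per sample. Sox4 and Sox11 are the highest genes in every sample, Sox5 and Sox6 have similar points at both ages, and Sox2, Sox8 and Sox9 have 1 E18 point down at the P5 level.

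The makeup of the summed SoxC level differed between the ages by more than the spread between samples, in a design that cannot reach an exact p under 0.1. Per kilobase, Sox4 made up 50.6%, 50.9% and 52.0% of the summed SoxC level in E18 replicates 1, 3 and 4, and 59.3%, 61.4% and 62.0% in P5 replicates 6, 8 and 9. Sox11 made up 44.3%, 44.1% and 43.1% at E18 and 35.4%, 32.7% and 30.4% at P5. The E18 minus P5 difference was -9.74 percentage points for the Sox4 share and 10.98 for the Sox11 share, and the ages did not overlap in either. The share of Sox12 was 4.92% to 5.08% at E18 and 5.34% to 7.56% at P5.

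Pairwise ratios leave the remaining gene out of the comparison. The log2 ratio of Sox11 over Sox4 was -0.22 ± 0.0427 at E18 and -0.89 ± 0.143 at P5, and that of Sox11 over Sox12 was 3.13 ± 0.0103 and 2.41 ± 0.367 (SD, n = 3 each). Both changes separated the ages completely, and the two-sided exact permutation p was 0.1 for each, the smallest that 3 samples against 3 allow (0.15 after adjustment over the 3 ratios compared). The ratio of Sox12 over Sox4 had an E18 minus P5 difference of -0.05, within its spread (exact permutation p = 0.9).

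**Figure D3:**
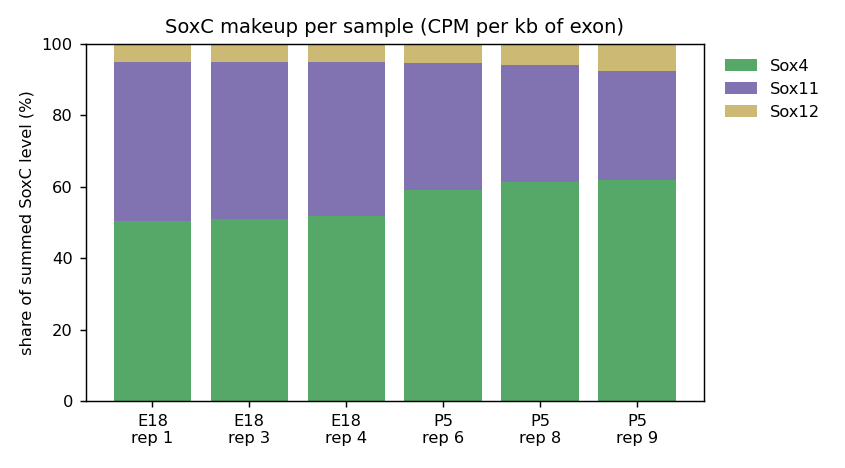
Share of Sox4, Sox11 and Sox12 in their summed level (CPM per kilobase of exon) in each of the 6 samples (bars from 0% to 100%). Sox11 takes 43.1% to 44.3% of each E18 bar and 30.4% to 35.4% of each P5 bar.

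Sox2 gave the largest fold change of the 8 genes and the least even one. It lies in 1 exon on chromosome 3 (ENSMUSG00000074637.7, 34650405 to 34652461, plus strand) and had 45.7, 69.3 and 0.950 CPM in E18 replicates 1, 3 and 4 against 0.790, 1.48 and 0.829 CPM in P5 replicates 6, 8 and 9. E18 replicates 1 and 3 were thus far above the P5 samples and E18 replicate 4 was within them, with 86 reads against 70 to 146 at P5. The fitted log2 fold change was 5.22 ± 1.19 (SE), with an adjusted p of 0.00840 from edgeR's test, larger than that of all but 4 of the genes tested, and with E18 replicate 4 alone it was -0.11 (adjusted p = 0.913). The call was also lost, narrowly, without P5 replicate 6 (log2 fold change 5.05, adjusted p = 0.0502).

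Sox2ot, the long noncoding gene on the same strand within which Sox2 lies, had 34.4, 79.3 and 1.33 CPM at E18 and 2.63, 3.58 and 2.75 CPM at P5. Reads of the 2 genes cannot be fully told apart where they overlap. The log2 ratio of Sox2 over Sox2ot was 0.41, -0.19 and -0.48 at E18 and -1.73, -1.27 and -1.73 at P5. The part of shared reads in the levels of the 2 genes was not tested.

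The genes whose levels followed Sox2 across the samples were sought after its values had been seen. Among 9724 other tested genes averaging 10 CPM or more, the highest Pearson correlations of log2 CPM over the 6 samples were those of Nav1 (0.997), Megf10 (0.993) and Tfap2b (0.993), and these values describe only 6 points, which share their libraries. Nav1, a neuron navigator protein and no member of the amacrine list, differed little in size, with 118, 121 and 98.6 CPM at E18 and 97.6, 102 and 99.6 CPM at P5 (log2 fold change 0.17, edgeR adjusted p = 0.185). Megf10, a receptor that spaces starburst amacrine cells, had 163, 377 and 11.2 CPM at E18 and 7.53 to 11.4 CPM at P5. Tfap2b, an AP-2 factor of amacrine cells, had 47.5, 119 and 1.62 CPM at E18 and 1.02 to 1.55 CPM at P5. Chat, an amacrine gene not among the 3 most alike, is the enzyme that makes acetylcholine in starburst cells, and it had 5.59, 10.9 and 0.287 CPM at E18 and 0.237 to 0.797 CPM at P5.

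The summed amacrine level stood in the same order as Sox2 at E18, and in E18 replicates 1 and 3 most of it was Megf10 and Tfap2b. Other genes of the list stood in another order. Slc5a7 had 8.55, 7.92 and 8.44 CPM in E18 replicates 1, 3 and 4. Gad2 was highest in P5 replicate 9, at 13.2 CPM. By edgeR's test, 8 of its 11 tested genes were higher at E18 and 0 lower (0 lower also at an unadjusted p under 0.05 and by DESeq2), where 20.8% of all genes tested were called higher. The median log2 fold change was 3.17 against 0.00 over all genes tested. With E18 replicate 4 alone, the median of the list was 0.22, but that sample was set apart partly for its low amacrine sum. In that fit Slc5a7, Gad1 and Gad2 had log2 fold changes of 1.37, -2.65 and -1.26, with these genes named after their values were seen. Sox2 is made by amacrine cells and progenitors, and the part of either in the Sox2 values was not tested.

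Sox8 and Sox9 were lower in level and rested mainly on E18 replicate 1. Sox8 (ENSMUSG00000024176.10, chromosome 17, 25565892 to 25570686, minus strand) had 390, 68 and 18 reads at E18 and 17, 26 and 9 at P5, that is 4.70, 0.606 and 0.199 CPM against 0.192, 0.264 and 0.0957 CPM. Sox9 (ENSMUSG00000000567.5, chromosome 11, 112782224 to 112787760, plus strand) had 151, 65 and 17 reads at E18 and 17, 16 and 15 at P5, that is 1.82, 0.580 and 0.188 CPM against 0.192, 0.163 and 0.159 CPM. In both genes E18 replicate 1 was highest and replicate 3 next, and E18 replicate 4 overlapped with the P5 samples.

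Both were called by edgeR's test, with log2 fold changes of 3.2998 ± 1.04 (SE) for Sox8 and 2.32 ± 0.717 (SE) for Sox9, and adjusted p-values of 0.0320 and 0.0294. Neither call held without E18 replicate 1, where the values were 1.14 and 1.18 (adjusted p = 0.170 and 0.120). Without P5 replicate 6, 8 or 9 the log2 fold changes stayed near their size, at 2.99 to 3.66 for Sox8 and 2.27 to 2.398 for Sox9, but did not pass (adjusted p = 0.0616 to 0.107 and 0.0740 to 0.0900 by edgeR). With E18 replicate 4 alone the log2 fold changes were 0.12 and 0.14 (adjusted p = 0.944 and 0.929). An antisense gene, 2810468N07Rik, overlaps Sox8 and had at most 96 reads in a sample.

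Summed levels of progenitor and of dividing-cell genes were highest in the same E18 sample, at 1053 and 414 CPM. Pax6 made up most of the progenitor sum and was itself highest in E18 replicate 3, with 661, 751 and 622 CPM at E18. Mki67, a marker of dividing cells, had 68.7, 16.2 and 2.84 CPM at E18 and 0.967 to 4.17 CPM at P5. Slc1a3, the glutamate transporter of Müller glia and progenitors, had 16.2, 2.80 and 0.475 CPM at E18 and 1.11 to 1.78 CPM at P5. Of the 14 progenitor genes, 7 rose at E18 and 0 fell by edgeR's test (0 lower also unadjusted and by DESeq2), against 20.8% called higher of all genes tested, with a median log2 fold change of 2.12, or 0.85 without E18 replicate 1. Of the 14 dividing-cell genes, 9 were higher and 0 lower (again 0 lower unadjusted and by DESeq2), against the same 20.8%, with a median of 1.39, or 0.57 without that sample. With E18 replicate 4 alone, the median log2 fold changes were 0.21 for the progenitor list and 0.18 for the dividing-cell list. That sample was set apart partly for its low dividing-cell sum, so the small value of that list is not a separate result.

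The glial list was called about as often as all genes. Of its 13 tested genes, 4 were higher and 2 lower at E18, where 43.4% of all genes tested were called in either direction, its median log2 fold change was 0.41, and it summed to 640.2, 574 and 539 CPM at E18 and 537 to 559 CPM at P5. Glul was abundant, with 326, 323 and 313 CPM at E18. So was Vim, with 93.9, 86.8 and 82.2 CPM at E18, and both were called higher by edgeR. Id3 and Crym were called higher as well (log2 fold change 3.21 and 1.08). The genes called lower were Dkk3 and Clu (log2 fold change -0.59 and -1.19, edgeR adjusted p = 0.0187 and 0.00282). Pdpn, at 2.39, 0.384 and 0.110 CPM at E18, was highest in E18 replicate 1 as Sox8 and Sox9 were. Aqp4 and Gfap, which mark mature Müller glia and astrocytes, were at or under 0.410 and 0.117 CPM in every sample. Sox10, the SoxE factor of oligodendrocytes, had at most 10 reads in a sample and was not tested. The part of these cells in the Sox8 and Sox9 values was not tested.

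**Figure D4:**
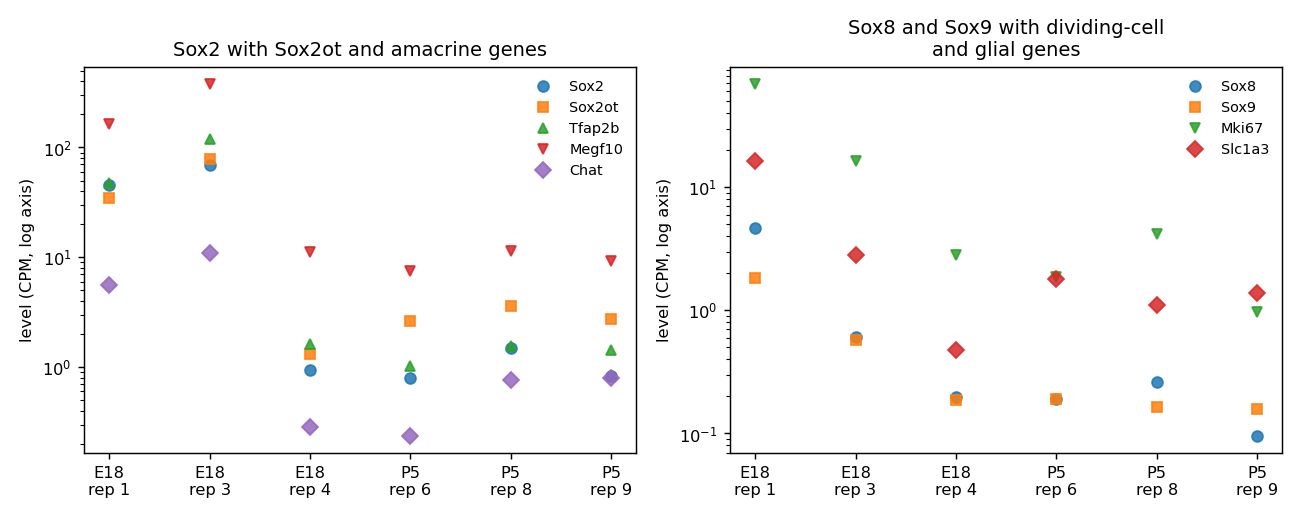
Levels in CPM (y axis, log scale) in each of the 6 samples, for Sox2 and Sox2ot beside the amacrine genes Tfap2b, Megf10 and Chat (left), and for Sox8 and Sox9 beside Mki67 of dividing cells and Slc1a3 of glia and progenitors (right). On the left the points of E18 replicate 3 are highest and those of E18 replicate 4 are near the P5 points, and on the right E18 replicate 1 is highest for all 4 genes.

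The SoxD genes Sox5 and Sox6 did not pass the test. Sox6 (ENSMUSG00000051910.13, chromosome 7, 115470872 to 116038796, minus strand) had 111, 96.7 and 123 CPM at E18 and 111, 79.2 and 95.7 CPM at P5, so that the ages overlapped (log2 fold change 0.21 ± 0.140 SE, edgeR adjusted p = 0.242). Sox5 (ENSMUSG00000041540.16, chromosome 6, 143828425 to 144781977, minus strand) had 7.57, 10.8 and 7.48 CPM at E18 and 6.06, 5.69 and 7.20 CPM at P5. Its E18 samples were all above its P5 samples, yet E18 replicate 4 exceeded P5 replicate 9 by little, and it did not pass (log2 fold change 0.45 ± 0.189 SE, edgeR adjusted p = 0.0832). Neither gene was called under any of 12 alternative settings, where Sox6 had log2 fold changes of 0.08 to 0.32 and Sox5 of 0.26 to 0.55, nor with E18 replicate 4 alone, where they had 0.39 and 0.25 (edgeR adjusted p = 0.280 and 0.623). Genes on the other strand overlap both, among them Sox5os3, which had at most 24 reads in a sample.

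**Figure D5:**
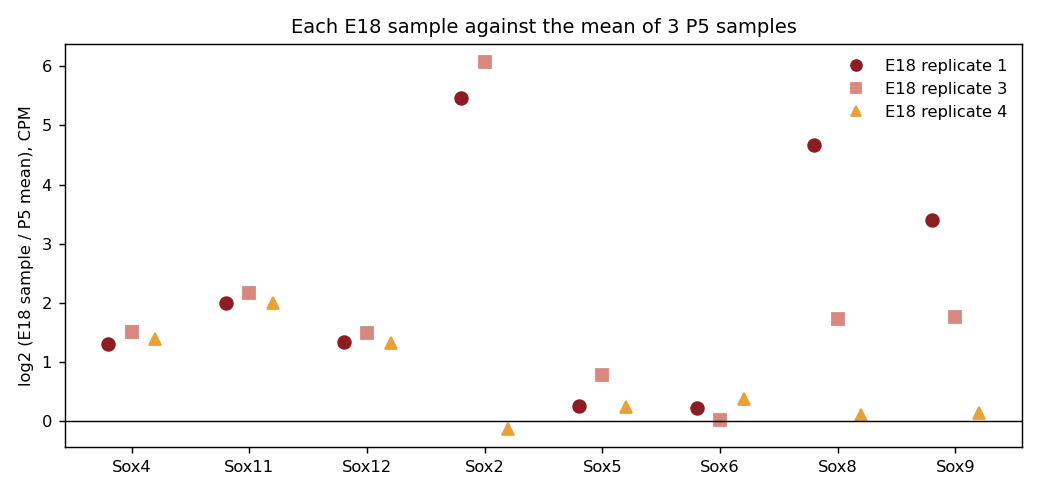
Log2 ratio of each E18 sample to the mean of the 3 P5 samples, from CPM (y axis), for the 8 Sox genes, with replicates 1, 3 and 4 as circles, squares and triangles. The 3 samples lie together above 0 for Sox4, Sox11 and Sox12, those of Sox6 lie between 0.02 and 0.38, and for Sox5 replicate 3 is at 0.78 with the others at 0.26 and 0.24, while for Sox2, Sox8 and Sox9 replicate 4 is near 0 and the others are above it.

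In all, 6 of the 8 Sox genes were called higher at E18 and 0 lower by edgeR (0 lower also unadjusted and by DESeq2), where 20.8% of all genes tested were called higher. With E18 replicate 4 alone the called genes were Sox4, Sox11 and Sox12, and when any 1 sample was left out at least these 3 remained called.

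The other members of the family were mostly near the limit of detection. Of 12 further Sox genes in the table, 4 had enough counts to be tested. Sox13 and Sox15 were called higher at E18 by edgeR, where 20.8% of all genes tested were. Sox13, a SoxD factor, had 5.40, 5.21 and 1.97 CPM at E18 and 0.880, 1.23 and 0.765 CPM at P5, for a log2 fold change of 2.13 ± 0.394 (SE) and an edgeR adjusted p of 0.00344. Sox15 had 38, 57 and 39 reads at E18 and 9, 15 and 4 at P5, for a log2 fold change of 2.22 ± 0.437 (SE) and an edgeR adjusted p of 0.00456, and it overlaps Mpdu1 on the other strand. Neither was called with E18 replicate 4 alone, where their log2 fold changes were 1.04 and 2.11 (edgeR adjusted p = 0.145 and 0.109). Sox3, the other SoxB1 factor tested, had a log2 fold change of 0.89 (adjusted p = 0.126) and Sox30 one of 0.72 (adjusted p = 0.0873, both by edgeR). The SoxF genes of blood vessels, Sox7, Sox17 and Sox18, had at most 10 reads in any sample.

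Genes known as SoxC targets in neurons or as acting downstream of SoxC in RGCs were followed as a list of 10. By edgeR's test, 5 were higher at E18, 0 were lower (1 at an unadjusted p under 0.05, Pou4f2, and 0 by DESeq2) and 5 did not pass, where 20.8% of all genes tested were called higher and 43.4% in either direction. The list had a median log2 fold change of 0.64 against 0.00 over all genes tested. Tubb3, the neuronal β-tubulin that is a direct SoxC target, had 2389, 2529 and 2778 CPM at E18 and 1841, 1875 and 1777 CPM at P5, with no overlap (log2 fold change 0.49, adjusted p = 0.00247). Dcx, the microtubule protein doublecortin of young neurons, had 673, 669 and 682 CPM at E18 and 425, 472 and 266 CPM at P5 (log2 fold change 0.80, adjusted p = 0.00875). At P5 Dcx was highest in replicate 8 and lowest in replicate 9, as the SoxC genes were. This order was not particular to Dcx, since Tubb3 had it too. So did Pou4f1, which did not pass the test, with 536, 712 and 483 CPM in P5 replicates 6, 8 and 9.

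Tead2, a Hippo pathway factor and SoxC target, had 11.5, 5.66 and 3.47 CPM at E18 and 0.406, 0.335 and 0.149 CPM at P5, for a log2 fold change of 4.53 ± 0.530 (SE) and an edgeR adjusted p of 0.000526. Isl1, a LIM homeobox factor of RGC identity, had a log2 fold change of 1.10 (adjusted p = 0.000857 by edgeR), with 521.5, 617 and 533 CPM at E18 and 262, 309 and 207 CPM at P5. Prox1, also an amacrine marker, had 6.84, 10.6 and 1.999 CPM at E18 and 0.914, 1.94 and 0.734 CPM at P5 (log2 fold change 2.43, adjusted p = 0.0109 by edgeR). With E18 replicate 4 alone, Tubb3 (0.61), Tead2 (3.55) and Isl1 (1.05) were called on the log2 scale, while Dcx (0.83, adjusted p = 0.0650) and Prox1 (0.75, adjusted p = 0.395) were not.

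The remaining targets did not pass. Nrcam and Plxna1, cell surface molecules through which RGC axons cross at the chiasm, had log2 fold changes of 0.09 and 0.10 (adjusted p = 0.463 and 0.451 by edgeR). Pou4f1 and Pou4f2, the Brn3 factors of RGCs, had 0.15 and -0.28 (adjusted p = 0.417 and 0.0897 by edgeR), and Hes5, a Notch effector, had 1.59 (adjusted p = 0.0751 by edgeR), with 5.97 CPM in E18 replicate 1 and 0.563 to 1.31 CPM in the other samples.

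Partners and regulators of SoxC and SoxB1 factors were the other list of 10 genes, of which 5 were higher at E18 by edgeR, 0 were lower (0 also unadjusted and by DESeq2) and 5 did not pass, against the same 20.8% and 43.4%. Its median log2 fold change was 0.81. Pou3f1, Pou3f3 and Pou2f1, of the POU family with members that bind beside Sox proteins, rose by 0.85, 1.70 and 0.78 on the log2 scale (adjusted p = 0.0190, 0.00638 and 0.00691 by edgeR). Pou3f2 did not pass (0.25, adjusted p = 0.347 by edgeR). Rest, the repressor of neuronal genes reported to hold back Sox4 and Sox11 in progenitors, had 20.5, 18.41 and 12.4 CPM at E18 and 6.24, 10.8 and 4.68 CPM at P5 (log2 fold change 1.24 ± 0.304 SE, edgeR adjusted p = 0.0115). It was thus higher at E18, as both were, but whether the same cells held Rest, Sox4 and Sox11 was not tested. Neurog2, a proneural factor of progenitors and newborn neurons, had 15.9, 23.8 and 2.93 CPM at E18 and 0.659 to 1.64 CPM at P5 (log2 fold change 3.56, adjusted p = 0.00407 by edgeR). None of these 5 was called by edgeR with E18 replicate 4 alone, where Rest had 0.79 (adjusted p = 0.223) and Neurog2 1.29 (adjusted p = 0.104), and the 1 gene of the list called there was Neurod1, lower at E18 (-1.17, adjusted p = 0.0322). Atoh7, Pax6, Six3 and Neurod1, which act in the progenitors and young neurons of the retina, did not pass (adjusted p = 0.0896, 0.0601, 0.0842 and 0.736 by edgeR).

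The 3 genes most alike to each SoxC gene were taken by Pearson correlation of log2 CPM over the 6 samples, which share libraries and depth. Among 9724 tested genes averaging 10 CPM or more, they were Igfbpl1, Eif1 and Rassf2 for Sox11, Tstd2, A930013F10Rik and Bach1 for Sox4, and Mterfd2, Numa1 and Zfp212 for Sox12, with correlations of 0.999 to 1.00. Correlation ignores the size of the change, and these genes differed in it. Igfbpl1 had 107, 125 and 114 CPM at E18 and 23.1, 29.7 and 11.3 CPM at P5, for a log2 fold change of 2.43 ± 0.297 (SE) and an edgeR adjusted p of 0.000628. Tstd2 had 30.9, 32.04 and 30.9 CPM at E18 and 21.2, 24.2 and 18.2 CPM at P5, for a log2 fold change of 0.56 ± 0.121 (SE) and an edgeR adjusted p of 0.00669. Between the SoxC genes themselves the correlations were 0.985 to 0.994, between Sox8 and Sox9 0.966, and between Sox2 and Sox6 0.00.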

How the data were processed

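RNA-seq libraries of immunopanned RGCs (3 E18 and 3 P5 samples, grouped by their titles) were made with TruSeq and RiboZero Gold. The authors aligned the paired-end reads to mm10 with STAR, assigned them to RefSeq genes with HT-seq, and deposited 1 table with the raw count of every gene, which is the unit used here. Its other columns were not used: the authors' normalized counts (a signal scaled by library size), and from their own edgeR comparison the deposited log2 ratios and fold changes, p-values, false discovery rates and a rank score. Strand setting and multi-mapped reads are not given in the sources used here. The name of the E18 replicate 1 column lists 2 more numbers, 2 and 5, and no source says whether preparations were pooled in it. The labels name polyA RNA and the protocol ribosomal depletion.

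Counts were TMM-normalized, filtered with filterByExpr and tested across all genes by quasi-likelihood in edgeR 4.0.16 under R 4.3.3, Benjamini-Hochberg adjusted, and the script was tested on simulated counts. Alternatives are listed in the closing section. Exact permutation tests were used for SoxC shares. No replicates differed by as little as sampling noise (chi-square per degree of freedom 30.5 to 141). Exon lengths, coordinates and overlaps come from GENCODE M21 (mm10) by symbol, for 15662 of the 16449 genes tested, and promoters from RefSeq, matched for 7 of the 8 Sox genes (Sox9 is missing). The genes named are the 8 members, genes of the lists, the 3 most alike to each SoxC gene averaging 10 CPM or more, and, chosen after values were seen, the 3 most alike to Sox2 and genes that overlap a Sox gene. The members and lists were chosen with earlier results of these data known, and no list was given a test of its own. The values of 1 gene are not reported here.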

Additional observations from a re-analysis of the deposited data

How the results depend on the processing

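Alternatives were DESeq2 1.42.0, edgeR's exact test, relative log expression or upper-quartile scaling, no filter or 1 CPM in 3 samples, and each sample left out. Sox4, Sox11 and Sox12 kept direction and call in all 12. Of the 8 Sox genes, 6 were called, 3 to 6 when a sample was left out, and 3 with E18 replicate 4 alone, an alternative added after seeing the data. That fit reversed Sox2 (-0.11) and called 1633 genes, against 7135 in the main comparison, 7634 by DESeq2 and 4575 (without E18 replicate 3) to 8796 (without P5 replicate 8) when a sample was left out. With 1 CPM in 3 samples, Sox8 and Sox9 were not tested and 4 Sox genes were called. Without division by length, the Sox4 share differed by -10.4 and the Sox11 share by 11.6 percentage points. Leaving out a sample gave 1 to 13 called dividing-cell genes, 2 to 10 progenitor genes and 3 to 7 partners and regulators. No paired analysis was possible because the ages share no replicate number. With 3 samples an age, the exact tests cannot go below 0.1.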
